A study of Mus musculus with 9 samples.

Results

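The 6 genes described here encode the EGR and NR4A transcription factors Egr1, Egr2, Egr3, Nr4a1, Nr4a2 and Nr4a3, chosen by gene symbol from the 46517 genes in the deposited expression table. RNA-seq was performed on neutrophils sorted as live CD45+ cells negative for the lineage markers CD3, B220 and NK1.1 and positive for Ly6G and Ly6C. All samples came from C57BL/6 mice on day 27 after transplantation of pancreatic ductal adenocarcinoma cells, which the study derived from KPC mice (a genetically engineered pancreatic cancer model), into the pancreas of orthotopic transplant (OT) animals. There were 3 libraries each from bone marrow (labelled Ly6G.hi), blood (labelled Ly6G+) and tumor (tumor-infiltrating, labelled Ly6G+), and no library from tumor-free mice was analysed here. The study's methods describe neutrophils pooled from several mice and repeated experiments, and only the tumors are described as going through enzymatic digestion at a warm temperature before sorting. Tissue digestion and compartment therefore cannot be told apart in any tumor comparison.

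EGR proteins are zinc finger transcription factors, and NR4A proteins are orphan nuclear receptors that act without a known physiological ligand. Both families are immediate early genes: growth factors, stress and inflammatory signals induce them within minutes from factors already present in the cell, mainly SRF with its ELK partners for EGR genes and CREB and MEF2 for NR4A genes. The NAB proteins bind EGR factors and restrain them, and NR4A proteins can pair with retinoid X receptors. In myeloid cells, Egr1 is known for its link to monocyte differentiation and inflammatory gene induction, and Nr4a1 for the survival of patrolling monocytes and for limiting inflammation.

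The genes lie on separate chromosomes, and positions below use the GRCm38 build. Egr2 is at chr10:67535475-67542188, Egr3 at chr14:70077203-70082614, Nr4a1 at chr15:101254269-101274795 and Nr4a3 at chr4:48045153-48086447, each on the plus strand. Nr4a2 is at chr2:57106830-57124003 on the minus strand. The annotation (GENCODE M21, a later release than the one behind the values) placed no other gene over any of the 6.

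Promoter windows from RefSeq (GRCm38.p6), 250 bases before to 50 after a transcript start, were given for 4 of the 6 genes: 5 windows for Egr2 and 1 each for Nr4a1, Nr4a2 and Nr4a3. Egr1 and Egr3 had none. The stretches below are shown because TGACG, the core of the cyclic AMP response element (CRE), recurs on either strand in the NR4A windows. They run 5′ to 3′ along the gene's strand, and capitals mark CRE core sites and, in Egr2, also the CArG box that SRF binds. The NR4A stretches leave out annotated exons. The Egr2 stretch lies within the annotated gene span and was not checked against exons. The positions are chr15:101266596-101266845 for Nr4a1, chr2:57124004-57124253 (minus strand) for Nr4a2, chr4:48045055-48045152 for Nr4a3 and chr10:67537793-67537822 for Egr2.
Nr4a1: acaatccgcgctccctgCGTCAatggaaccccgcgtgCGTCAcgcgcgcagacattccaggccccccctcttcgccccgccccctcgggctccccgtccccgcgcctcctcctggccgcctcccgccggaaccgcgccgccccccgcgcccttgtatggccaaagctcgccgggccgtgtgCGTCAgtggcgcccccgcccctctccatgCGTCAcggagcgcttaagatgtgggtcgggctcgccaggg
Nr4a2: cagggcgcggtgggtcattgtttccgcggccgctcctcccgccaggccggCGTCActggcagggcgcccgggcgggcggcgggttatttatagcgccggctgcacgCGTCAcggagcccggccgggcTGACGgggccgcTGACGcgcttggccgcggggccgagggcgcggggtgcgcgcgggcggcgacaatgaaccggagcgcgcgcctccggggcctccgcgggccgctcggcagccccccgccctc
Nr4a3: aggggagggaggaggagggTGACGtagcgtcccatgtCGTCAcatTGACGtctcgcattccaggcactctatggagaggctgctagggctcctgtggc
Egr2: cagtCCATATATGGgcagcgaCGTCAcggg

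Each of the 3 NR4A windows held 4 CRE core sites, of which 4, 4 and 3 fall in the stretches printed for Nr4a1, Nr4a2 and Nr4a3. Among all 32851 windows in the table, 20.8% held at least 1 core site and 1.03% held 3 or more. The full CRE (TGACGTCA, which contains the core on both strands) was in no window of these genes and in 1.79% of all windows. A CArG box was in 4 of the 5 Egr2 windows and in 1.63% of all windows, but 3 of those 4 overlap and share 1 box, so there were 2 distinct boxes. The printed one began 72 bases before the Egr2 start at chr10:67537869, with a CRE core site beginning 55 bases before it. Neither the EGR site GCGTGGGCG nor the NR4A site AAAGGTCA was in any of the 8 windows, against 0.612% and 1.51% of all windows. These are matches of letters in short windows and carry no measurement of binding.

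The 9 libraries held between 4580807 and 7949367 reads, as recovered from the deposited log2 FPKM values (reads scaled to gene length and library size). Of the 6 genes, Egr1, Egr2 and Nr4a1 passed the filter on low values (log2 FPKM over 0 in at least 3 libraries), which 7794 genes passed. Egr3, Nr4a2 and Nr4a3 did not, and their differences below come from the same limma fit on all 46517 genes. The filter acts on FPKM, whose length equals the full gene span, introns included, for 39414 of the 46517 genes. Nr4a3 reads were divided by 41295 bases (exonic length 5987) and Nr4a2 reads by 17174 (4059), so their place under the filter depends on introns too. Neutrophil markers made up 127642 to 142254 RPM (reads per 1000000 of scaled library size) in the bone marrow libraries, with 41833 to 44174 for blood and 15296 to 19299 for tumor, and all 12 were read in every library. Ngp and Ltf had the most marker reads in bone marrow (246966 and 243442 in replicate 1). By limma, 3 of 12 (Ngp, Camp and Ltf) were higher and 9 lower in tumor than in blood (28.1% and 34.5% of genes tested). Blood had 2 higher (Csf3r and Cxcr2) and 9 lower than bone marrow (20.6% and 23.6%), and tumor 0 higher and 11 lower (22.4% and 32.9%). The sums thus do not measure neutrophil content alone. Fewer cells of a type and less RNA per cell cannot be told apart in bulk samples. The labels of the 3 libraries of a compartment differed in replicate number only, though the study describes separate pools of mice and repeated experiments. The p-values measure the spread between these pooled samples.

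Each of the 6 genes was highest in tumor neutrophils. All 6 had 3 tumor values above all 3 blood values and all 3 bone marrow values, which 35.8% and 32.0% of the 17714 genes reaching 5 reads somewhere also had. By limma with Benjamini-Hochberg adjustment, the 3 genes that passed the filter were all higher in tumor than in blood (28.1% of genes tested were) and all higher than in bone marrow (22.4%). Egr2 passed through its 3 tumor libraries, so its place among the tested genes is not independent of a high tumor level, whereas Egr1 and Nr4a1 were over the filter in all 9 libraries. In the fit on all genes, the 6 were called higher in both tumor comparisons, where 9.91% and 7.30% of genes were.

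**Figure D1:**
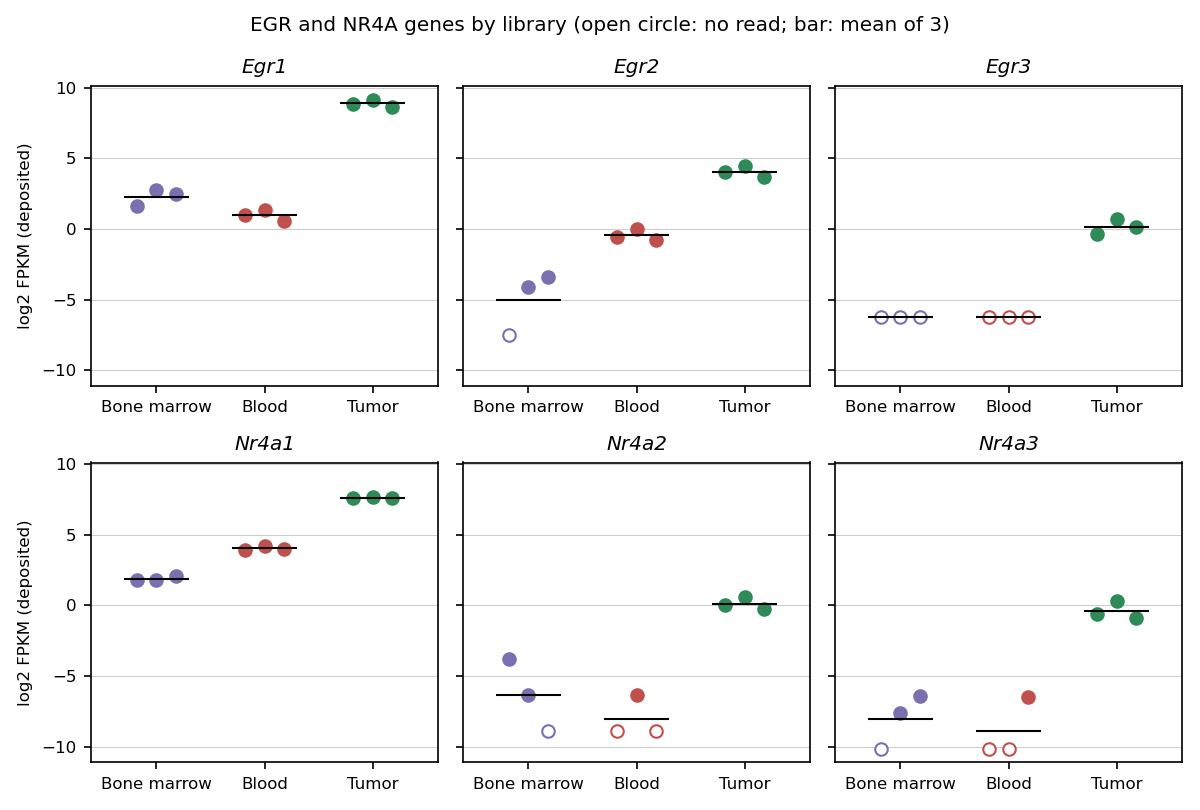
Deposited log2 FPKM (y axis) of the 6 genes in the 3 bone marrow, 3 blood and 3 tumor libraries, with 1 point per library, open where no read was recovered, and bars at the mean of 3. The tumor points lie above all others in each panel, Egr1 is lower in blood than in bone marrow, and Egr2 and Nr4a1 step up from bone marrow to blood to tumor.

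Egr1 (chr18:34859823-34864984, plus strand), the family's best known immediate early factor, had the highest FPKM of the 6 in tumor neutrophils. Its deposited level in log2 FPKM was 1.65, 2.73 and 2.46 in bone marrow, 1.01, 1.34 and 0.54 in blood, and 8.88, 9.17 and 8.68 in tumor. All tumor values stood far above the rest, and the blood values lay below all bone marrow values. The recovered reads were 108, 193 and 189 in bone marrow, 41, 73 and 35 in blood, and 15067, 22414 and 16796 in tumor. Egr1 was 246-fold higher in tumor than in blood (log2 difference 7.94, SE 0.31, 95% interval of the fold 149 to 405, limma adjusted p = 2.62e-06). Against bone marrow it was 98.9-fold higher (6.63, SE 0.31, adjusted p = 3.62e-06). Its mean level ranked 37th of the 7794 genes in tumor, 2287th in bone marrow and 4140th in blood, and 1.78% of genes had a larger rise from blood to tumor. The ranks of level compare FPKM, whose lengths are full gene spans for most genes, so they favor genes with little intron sequence.

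Egr2, an EGR factor that acts in myelin formation and in lymphocyte tolerance, had almost no reads in bone marrow. It had 0, 2 and 4 reads there, 18, 38 and 18 in blood, and 672, 1119 and 693 in tumor. The corresponding log2 FPKM values were -7.54, -4.11 and -3.39, then -0.55, 0.03 and -0.79, then 4.01, 4.46 and 3.70. The 3 compartments did not overlap for Egr2. It was 22.6-fold higher in tumor than in blood (log2 difference 4.50, SE 0.96, limma adjusted p = 0.00409). Against bone marrow the log2 difference was 9.07 (SE 0.96, adjusted p = 0.000135), and the ratio of pooled reads per scaled library size was 362, with a counting interval of 166 to 988. Without bone marrow replicate 1, which had no Egr2 read, this difference was 7.81 (adjusted p = 3.72e-05).

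Egr3, which is induced downstream of antigen receptor and growth factor signals, was read in tumor only. It had 13, 33 and 24 reads in the tumor libraries and 0 in each of the 6 bone marrow and blood libraries, where all deposited values equal -6.23. Taking 3 reads over the 3 libraries as the most that a count of 0 allows, Egr3 in tumor was at least 15.3-fold higher when set against blood, and the bound against bone marrow was at least 20.4-fold higher. Counting error in the tumor reads as well puts the lower limits of the ratios at 12.1 and 16.2. The fit on all genes gave adjusted p = 1.93e-05 and 2.07e-05 (limma). At 70 reads over the tumor libraries, its level remained far below that of Egr1. Egr4, the remaining EGR relative, had 0 reads in all 9 libraries.

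Nr4a1, the NR4A receptor best known in monocytes and in T cell activation, rose in steps. Its log2 FPKM was 1.83, 1.80 and 2.08 in bone marrow, 3.92, 4.20 and 4.02 in blood, and 7.59, 7.71 and 7.65 in tumor. The spread within each compartment was small beside the steps between them, and no compartments overlapped. Nr4a1 was 12.1-fold higher in tumor than in blood (log2 difference 3.60, SE 0.11, limma adjusted p = 1.85e-06) and 53.7-fold higher than in bone marrow (5.75, SE 0.11, adjusted p = 2.40e-07). It had 9531, 12562 and 12684 reads in tumor, and its mean level ranked 74th of the 7794 genes there, 873rd in blood and 2765th in bone marrow. The limit given for the Egr1 ranks holds here too.

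Nr4a2, known for its part in dopamine neurons, was close to unread outside the tumor. It had 8, 1 and 0 reads in bone marrow, 0, 1 and 0 in blood, and 108, 195 and 113 in tumor. Bone marrow replicate 1 held nearly all bone marrow reads. In the fit on all genes, the log2 difference was 8.15 against blood (SE 1.37, limma adjusted p = 0.00886) and 6.46 against bone marrow (SE 1.37, adjusted p = 0.0271). The bone marrow call was lost without bone marrow replicate 2 (6.46, adjusted p = 0.0890), tumor replicate 1 (6.50, 0.0842), tumor replicate 2 (6.22, 0.0896) or tumor replicate 3 (6.65, 0.0760). The ratio of pooled reads per scaled library size was 273 against blood (counting interval 48.7 to 10791) and 40.4 against bone marrow (21.1 to 89.0). Without bone marrow replicate 1 the log2 difference from bone marrow was 7.73, without bone marrow replicate 3 it was 5.18, and without blood replicate 2 that from blood was 9.01.

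Nr4a3, an NR4A receptor studied in dendritic cell migration and as a tumor suppressor in myeloid leukemia together with Nr4a1, showed the same distribution. It had 0, 1 and 3 reads in bone marrow, 0, 0 and 2 in blood, and 169, 385 and 175 in tumor. The log2 differences were 8.53 against blood (SE 1.35, limma adjusted p = 0.00686) and 7.65 against bone marrow (SE 1.35, adjusted p = 0.0128) in the fit on all genes. The ratio of pooled reads was 239 against blood (counting interval 65.9 to 1976) and 159 against bone marrow (62.0 to 587). Without blood replicate 3 the first difference was 9.76, and without blood replicate 1 or 2 it was 7.92. Without bone marrow replicate 1 the second was 6.60, and without bone marrow replicate 3 it was 8.48. The fitted sizes for Egr3, Nr4a2 and Nr4a3, and those for Egr2 against bone marrow, depend on the small constant in the deposited values. The recovered reads were also tested, and limma-voom on the recovered reads called all 6 genes higher in both tumor comparisons, where 33.1% and 29.3% of 17714 genes were.

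**Figure D2:**
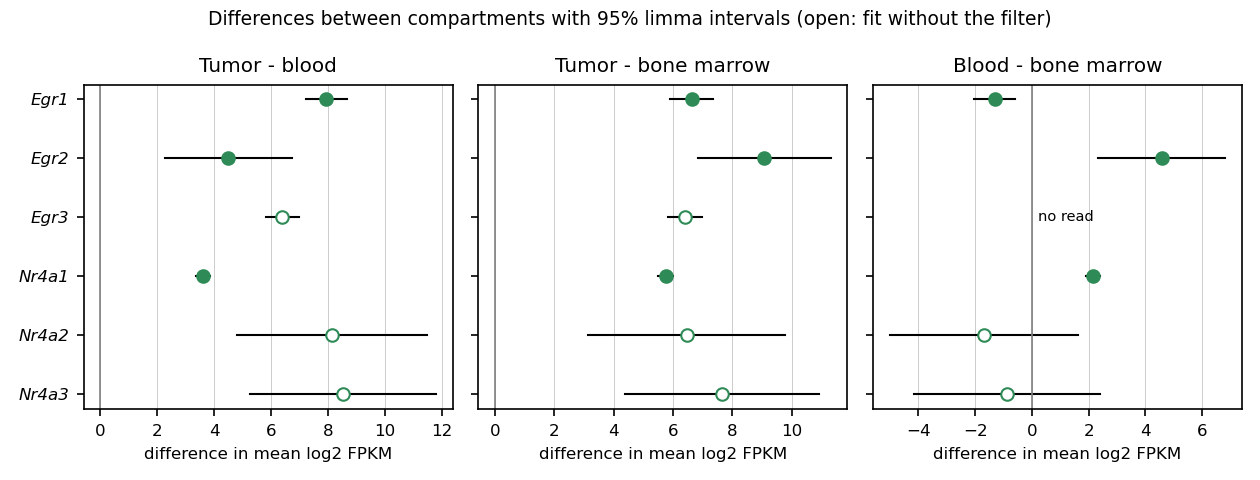
Difference in mean log2 FPKM (x axis) of each gene between compartments, with 95% limma intervals over 3 libraries a group; filled points come from the fit on 7794 genes and open points from the fit on all genes. All intervals for tumor against blood and bone marrow lie above 0, while blood against bone marrow is lower for Egr1, higher for Egr2 and Nr4a1, and spans 0 for Nr4a2 and Nr4a3.

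Blood and bone marrow neutrophils of the same tumor-bearing model differed in both directions. Of the 3 genes tested, 2 were higher in blood (20.6% of genes tested were) and 1 was lower (23.6%), and the same 2 and 1 did not overlap between the groups, beside 20.1% and 25.1% of the genes reaching 5 reads somewhere. Egr2 was higher in blood by 4.57 on the log2 scale (SE 0.96, limma adjusted p = 0.00642), by 3.31 without bone marrow replicate 1, and by 0.73 with a pseudocount of 1 FPKM. Nr4a1 was 4.43-fold higher in blood (2.15, SE 0.11, adjusted p = 1.44e-05). Egr1 was at 0.402 times its bone marrow level (-1.31, SE 0.31, adjusted p = 0.0107). The fit on all genes called only Nr4a1 in this comparison (3.30% of genes were higher and 4.26% lower), with limma adjusted p = 0.0812 for Egr1 and 0.0555 for Egr2. By limma-voom, Egr2 and Nr4a1 were higher in blood (13.8% of genes were) and Egr1 was lower (16.4%). For Nr4a2 and Nr4a3 the log2 differences were -1.69 (95% interval -5.02 to 1.63) and -0.88 (-4.15 to 2.39), and the few reads could not show a difference. The order was thus tumor, bone marrow, blood for Egr1 and tumor, blood, bone marrow for Egr2 and Nr4a1, and blood and bone marrow could not be ordered for the other 3.

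Which gene led each family was compared per length. The deposited FPKM divides reads by 2713 to 41295 bases for these genes, which for Egr1, Egr2, Nr4a2 and Nr4a3 is the full gene span with introns, so shares of reads per exonic length (3398 to 5987 bases) are given as well. Egr1 made up 99.1% ± 0.847 (SD, n = 3) of the summed EGR FPKM in bone marrow libraries, 72.5% ± 1.86 in those from blood and 96.4% ± 0.328 in those from tumor. Egr2 made up 27.5% ± 1.86 in blood, against 0.854% ± 0.847 in bone marrow and 3.36% ± 0.312 in tumor. Egr3 made up 0.233% ± 0.0621 in tumor. Per exonic length the Egr1 shares were 98.6%, 60.7% and 94.3% in the order bone marrow, blood, tumor. The Egr2 shares were then 1.36%, 39.3% and 5.63%, and Egr3 had 0.120% in tumor. The blood libraries lay between 71.4% and 74.7% for Egr1, below every bone marrow and tumor library. Each pair of compartments was separated, which gives an exact two-sided permutation p = 0.1, the smallest that 3 against 3 libraries allow.

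Nr4a1 made up nearly all NR4A FPKM in each compartment, at 99.1% ± 0.922 for bone marrow, 99.95% ± 0.0395 for blood and 99.1% ± 0.317 for tumor. Per exonic length these shares were 98.3%, 99.9% and 97.8%. The tumor share of Nr4a2 was 0.547% ± 0.151 and that of Nr4a3 was 0.395% ± 0.167 by FPKM, while per exonic length they were 1.01% ± 0.274 and 1.19% ± 0.494, so which of them was larger depends on the length used. The Nr4a1 share in tumor lay below that in blood in every library (exact permutation p = 0.1), while tumor and bone marrow overlapped (exact p = 1.0).

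The balance between Egr1 and Nr4a1 also changed. Egr1 minus Nr4a1 in log2 FPKM was -0.18, 0.93 and 0.38 in bone marrow, -2.91, -2.86 and -3.48 in blood, and 1.28, 1.46 and 1.03 in tumor. Nr4a1 exceeded Egr1 in all 3 blood libraries, and Egr1 exceeded Nr4a1 in all 3 tumor libraries, with each pair of compartments separated (exact permutation p = 0.1). Per exonic length the means were -0.60, -4.06 and 0.28, so Egr1 and Nr4a1 were near parity in tumor (0.31, 0.48 and 0.05) on that scale.

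**Figure D3:**
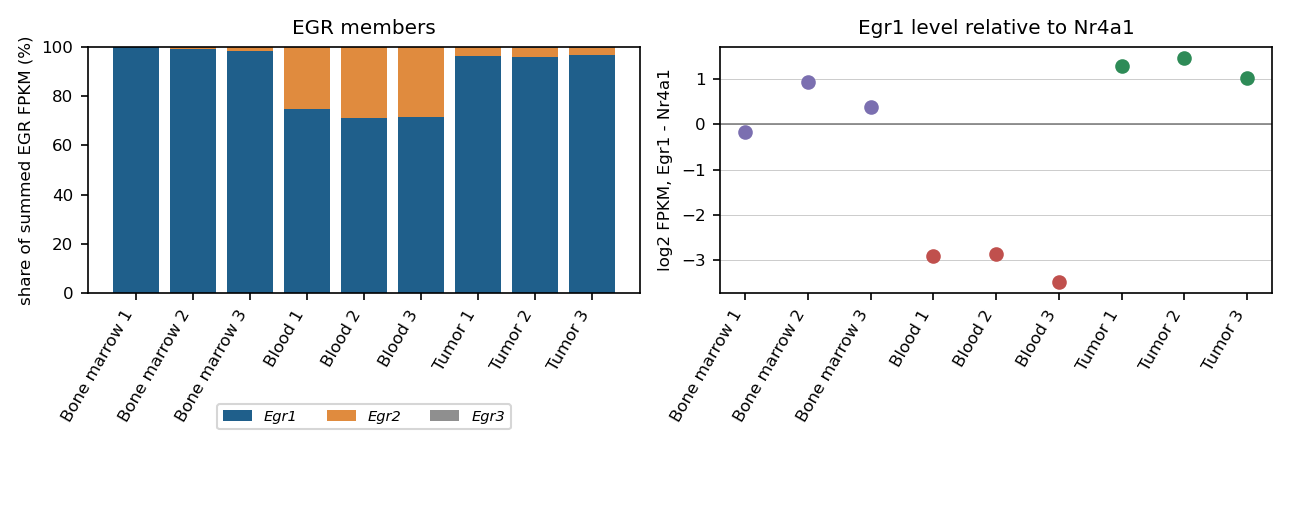
Left, share (%) of summed EGR FPKM taken by Egr1, Egr2 and Egr3 in each of the 9 libraries; right, Egr1 minus Nr4a1 in log2 FPKM for each library, colored by compartment, with a line at 0. Egr2 is visible mainly in the blood libraries, at 25.3% to 28.6%, and the Egr1 minus Nr4a1 difference is below -2.8 in blood and above 1.0 in tumor.

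Factors known to induce these genes differed in both directions. Among SRF and its partners, 4 of 6 genes were tested. In tumor 0 were higher and 2 lower than in blood (28.1% and 34.5% of all genes tested were). Against bone marrow 0 were higher and 3 lower (22.4% and 32.9%). The list medians were -1.01 and -1.11 on the log2 scale beside -0.17 and -0.21 over all genes tested. With plain library totals the medians were -0.56 and -0.66 beside 0.24 and 0.21, and 1 gene was higher and 2 lower against bone marrow. Srf itself was lower, by a log2 difference of -1.67 against blood (limma adjusted p = 0.00127) and -1.39 against bone marrow (0.00396). Mkl1, an actin-regulated SRF co-activator, was lower as well, at -2.58 (adjusted p = 1.36e-05) and -3.03 (7.20e-06). The ternary complex factor Elk3 and the co-activator Mkl2 did not pass the filter, and limma-voom called both higher in tumor, Elk3 by 1.49 and 2.16 and Mkl2 by 2.87 and 1.13 against blood and bone marrow.

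Of 6 genes of the CREB family and its co-activators, 3 were tested, with 0 higher and 1 lower against blood (28.1% and 34.5% of all genes tested were) and none called against bone marrow (22.4% and 32.9%) by limma. With plain library totals 1 was higher against bone marrow. On all 6, limma-voom called 2 higher and 2 lower against blood (33.1% and 21.9% of its genes were) and 2 higher and 1 lower against bone marrow (29.3% and 21.0%). Creb1 was lower in tumor than in blood by 1.11 (adjusted p = 0.00381). The list median against blood was -0.20, and it was 0.25 when libraries were scaled to their plain totals, so its sign depends on the scaling. Of 6 MEF2 and NFAT factors, 2 were tested. Nfatc1, a calcineurin-regulated factor, was lower at -2.43 against blood (limma adjusted p = 8.14e-06) and -1.27 against bone marrow (0.000225), while Mef2d exceeded its bone marrow level by 1.42 (0.00156). On all 6, limma-voom called 1 higher (Mef2d) and 2 lower (Nfatc1 and Mef2c) against blood, beside 33.1% and 21.9% of its genes. It called the same genes against bone marrow (29.3% and 21.0%). Mef2c was at -1.06 against blood (limma-voom adjusted p = 0.0335) and -0.99 against bone marrow (0.0443). Among retinoid X receptors, partners of NR4A proteins, only Rxrb was tested, and it was lower at -1.05 against blood (adjusted p = 0.00214) and -0.67 against bone marrow (0.0218, a call lost with plain library totals).

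The EGR co-repressors Nab1 and Nab2, which EGR factors induce as a feedback in other cells, were under the filter. Nab2 had 6, 1 and 2 reads in bone marrow, 8, 3 and 2 in blood, and 40, 65 and 33 in tumor. The tumor libraries lay above all others. By limma-voom, Nab2 was higher in tumor by 2.82 against blood (SE 0.67, adjusted p = 0.00257) and by 3.73 against bone marrow (SE 0.70, adjusted p = 0.000509), and Nab1 by 1.38 and 1.04 (0.000510 and 0.00179).

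Genes described elsewhere as EGR targets went in both directions. Of 13 listed genes, 7 were tested, with 4 higher and 2 lower in tumor than in blood (28.1% and 34.5% of all genes tested were) and 5 higher and 1 lower than in bone marrow (22.4% and 32.9%) by limma, and list medians of 2.01 and 4.70 beside -0.17 and -0.21 over all genes tested. F3, which encodes tissue factor, was higher by 7.18 against blood (adjusted p = 1.16e-05) and by 4.70 against bone marrow (0.000107). The adhesion receptor gene Icam1 was higher by 2.61 and 4.74, and Thbs1, the matrix protein thrombospondin, by 2.01 and 2.67. The hyaluronan receptor gene Cd44 was lower against blood at -1.55 (8.02e-05). With limma-voom, which tested all 13, 8 were higher and 3 lower than in blood (33.1% and 21.9% of its genes were) and 10 higher and 2 lower than in bone marrow (29.3% and 21.0%).

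Other immediate early genes were higher in tumor in most cases. All 14 were tested, with 11 higher and 1 lower against blood (28.1% and 34.5% of all genes tested were), and 13 higher and 0 lower against bone marrow (22.4% and 32.9%). The list medians were 1.88 and 2.07, beside -0.17 and -0.21 over all genes tested. Arc, best known from neurons, rose by 7.74 against blood (limma adjusted p = 0.00222), and the AP-1 genes Fosb and Jun by 3.79 (0.000599) and 3.07 (2.61e-05). Arc had 0, 4 and 0 reads in blood, so its fitted size depends on the small constant in the deposited values, and limma-voom gave 6.56. Ier3 rose by 3.06 (4.10e-05) and the stress factor Atf3 by 2.78 (0.00249). Fos rose by 2.14 (6.35e-06) from an already high level of 7.63 log2 FPKM in blood. Klf6 was lower against blood (-0.70, adjusted p = 0.00449), a call lost when libraries were scaled to plain totals, and rose by 0.57 against bone marrow (0.0141). In blood against bone marrow, 8 of the 14 were higher (20.6% of all genes tested were) and 1, Fos, was lower (23.6%), by a difference of -0.54 (adjusted p = 0.00903).

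**Figure D4:**
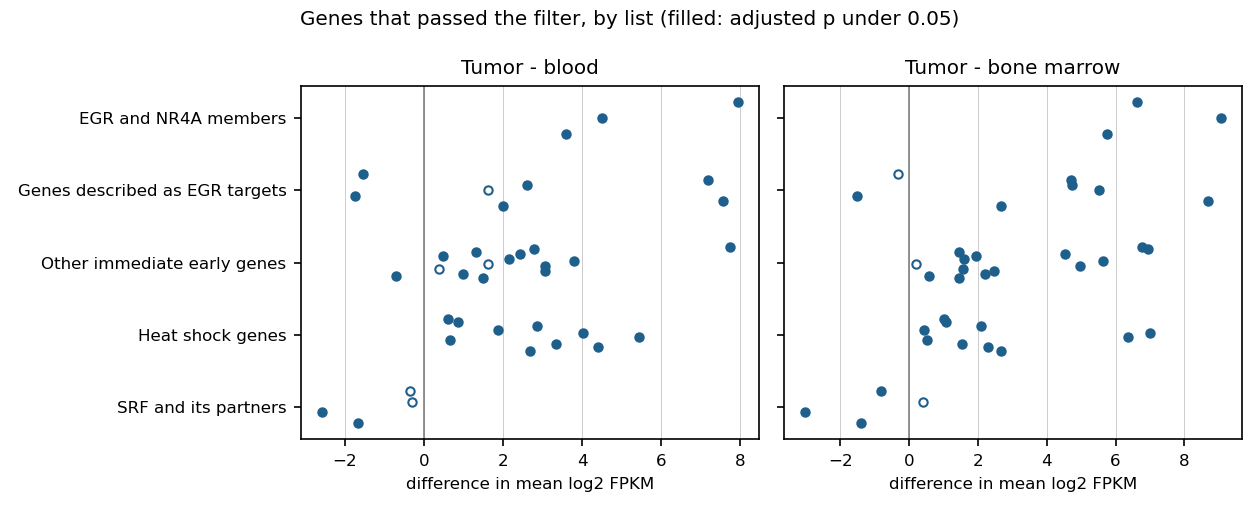
Difference in mean log2 FPKM (x axis) between tumor and blood (left) and tumor and bone marrow (right) for genes that passed the filter in each list, with 1 point per gene, filled at a limma adjusted p under 0.05. The 3 EGR and NR4A genes and all 10 heat shock genes lie above 0, most other immediate early genes do, and the SRF list lies mostly below 0.

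Stress genes and markers of other cell types moved with the same comparisons. All 10 heat shock genes listed were higher in tumor than in blood (median 2.77, 28.1% of all genes tested were higher) and than in bone marrow (median 1.82, 22.4%) by limma, Hspa1a by 4.01 (adjusted p = 9.85e-05) and 6.99 (8.29e-06), with the limit that Hspa1a and Hspa1b are near-identical copies whose reads may be split. Against bone marrow, blood had 1 heat shock gene higher and 4 lower of 10 (20.6% and 23.6% of all genes tested were). Summed tumor epithelium markers were 2513 to 4782 RPM in tumor, 25.4 to 172 in blood and 10.1 to 13.0 in bone marrow samples, with 8 of 8 markers read in every tumor library, 5 of 8 in every blood library and 4 of 8 in every bone marrow library, and Cldn4 at 0 throughout bone marrow. The 172 was blood replicate 2 alone, beside 27.6 and 25.4 in blood replicates 1 and 3. Fibroblast markers summed to 970 to 1114 in tumor (7 of 7 read in every library) and to at most 12.5 elsewhere, with Pdgfra at 0 in bone marrow and Lum and Pdgfrb at 0 in blood. Acinar markers summed to 442 to 1727 in tumor (6 of 6 read in every library) and to at most 8.95 elsewhere, with Amy2b at 0 in blood and bone marrow. Their part in the EGR and NR4A differences was not tested.

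Summed markers of other blood cells and of vessels had other distributions. Macrophage and monocyte markers summed to 424 to 650 RPM in tumor (10 of 10 read in every library), 1538 to 1749 in blood (9 of 10) and 594 to 640 in bone marrow (10 of 10). Endothelium markers summed to 75.0 to 120 in tumor (6 of 6), 101 to 150 in blood (3 of 6, Cdh5 and Tek at 0) and 12.5 to 21.4 in bone marrow (2 of 6). The blood sum came almost wholly from Vwf (315, 602 and 305 reads) and Pecam1 (138, 235 and 169). Kdr had 48, 44 and 51 reads in tumor, 1, 2 and 1 in blood and 0, 1 and 0 in bone marrow. Tek, Emcn and Cdh5 were likewise read mainly in tumor. Lymphocyte markers summed to 3.55 to 7.41 in tumor (5 of 7, Klrb1c at 0), 71.4 to 123 in blood (7 of 7) and 29.7 to 54.3 in bone marrow (4 of 7). Platelet markers summed to 524 to 735 in blood (5 of 5), where Nr4a1 and Egr2 exceeded and Egr1 fell short of bone marrow, against 8.13 to 13.3 in bone marrow (5 of 5) and 3.38 to 9.12 in tumor (2 of 5). Their part in those differences was not tested.

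**Figure D5:**
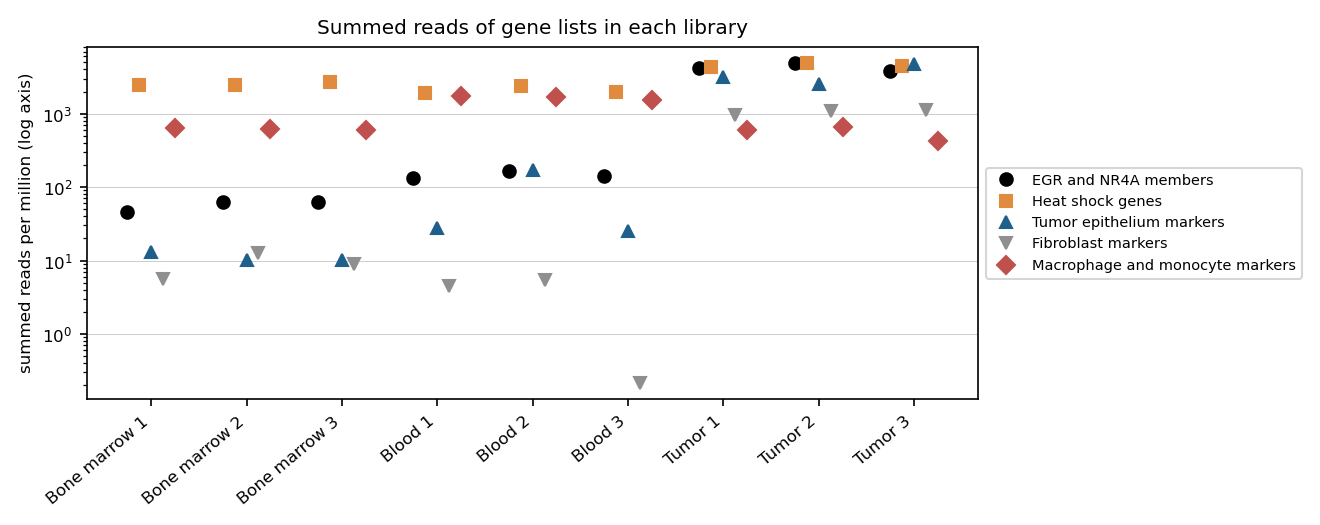
Summed RPM (y axis, log scale) of the 6 EGR and NR4A genes and of 4 marker or stress lists in each of the 9 libraries, with 1 symbol per list. In the tumor libraries the 6 genes sum to 4119, 4854 and 3838, while epithelium markers sum to 3174, 2513 and 4782 and heat shock genes to 4284, 4886 and 4492.

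Among the 3 tumor libraries, replicate 2 was the highest for all 6 genes, and replicate 3 was the lowest for 4 of them and replicate 1 for 2. The 6 genes together took 4119, 4854 and 3838 RPM in tumor replicates 1, 2 and 3. Epithelium markers took 3174, 2513 and 4782 and acinar markers 676, 442 and 1727, so the library with most EGR and NR4A reads had the fewest of both. Macrophage markers, at 602, 650 and 424, endothelium markers, at 100, 120 and 75.0, and heat shock genes, at 4284, 4886 and 4492, were most abundant in replicate 2 as well. Lymphocyte and platelet markers also peaked there, at no more than 7.41 and 9.12. Fibroblast markers took 970, 1069 and 1114, and neutrophil markers 19299, 15296 and 15362. With 3 libraries this order is a description only.

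The genes most like each tested member were those with the smallest root mean square difference of mean-centred log2 FPKM over the 9 libraries. For Egr1 these were the neutrophil chemokine gene Cxcl2 (0.60), the predicted gene Gm5345 (0.68, at most 39 reads in a library) and Ptgs2, which encodes the inducible cyclooxygenase (0.69). For Nr4a1 they were Nos2, the inducible nitric oxide synthase (0.30), the transglutaminase gene Tgm2 (0.36) and the niacin receptor gene Hcar2 (0.36). For Egr2 they were Car4 (0.98), Ociad2 (1.02) and Muc1 (1.16), at larger distances. Muc1 is also one of the epithelium markers above. Cxcl2 followed Egr1 in being lower in blood than in bone marrow (-1.51) and higher in tumor than in both (7.21 and 5.70).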

How the data were processed

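Neutrophil RNA from 9 libraries (SMARTSeq v2, paired-end) was sequenced by the authors. Per the study's methods and the submitters' processing notes, reads were aligned to GRCm38 with STAR 2.5.2b and counted per GENCODE M7 gene with featureCounts 1.5.0. The deposited values are log2 FPKM, made by the authors from scaled library sizes and a small constant. Limma on these values was set as the main fit, and the study's limma-voom, run on recovered reads, as an alternative. Reads were recovered from the steps between values, and came out whole (tolerance 0.001 reads) for 46517 of 46517 genes, with a constant of 0.143 to 0.287 reads. Recovered totals were 4580807 to 7949367 reads, and library scaling factors were 0.796 to 0.881 in bone marrow and blood and 1.08 to 1.22 in tumor. Intervals and limits from reads cover counting error only, since amplified reads are not independent molecules.

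Genes whose log2 FPKM exceeded 0 in 3 or more libraries were fitted with limma 3.58.1 (R 4.3.3, intensity trend) over all 9 libraries, with Benjamini-Hochberg adjustment over all genes tested and a threshold of 0.05. Exact permutation tests went through every split of the libraries compared, and the counting intervals of read ratios used SciPy 1.17.1. Scaling to plain totals moved the median of all genes tested from -0.17 to 0.24 for tumor against blood and from -0.21 to 0.21 for tumor against bone marrow. Alternatives were plain library totals, median centring, quantile normalization, no filter, a cutoff of 2 in place of 0, adding 0.1 or 1 to FPKM as a pseudocount, limma-voom on recovered reads (at least 5 reads in any library), a replicate block, and leaving out each library. The scripts were tested on simulated data. The genes and gene lists were chosen with earlier results of these data known. Named genes were the 6 members, list genes called with the largest differences or named for their role, and the 3 nearest genes to each tested member. Some genes counted in the lists are not reported by name here. Spike-in controls were not analysed here.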

Additional observations from a re-analysis of the deposited data

How the results depend on the processing

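The genes kept their direction in both tumor comparisons in each alternative that gave them a value (18 for Egr1, Egr2 and Nr4a1 and 16 for Egr3, Nr4a2 and Nr4a3). Of the 204 values, 199 stayed on the same side of the threshold, 5 lost the call and 0 reversed. The 5 were Nr4a2 against bone marrow, with the replicate block (6.46, limma adjusted p = 0.0559) and in 4 of the fits without 1 library (adjusted p 0.0760 to 0.0896). Without the filter, 6, 6 and 1 of the genes were called in tumor against blood, tumor against bone marrow and blood against bone marrow, and limma-voom on recovered reads called 6 and 6 in the tumor comparisons, because 3 more genes were tested. Pseudocounts shrank the differences of scarce genes: with a pseudocount of 1, Egr3 against blood went from 6.40 to 1.09, and Egr2 in tumor against bone marrow from 9.07 to 4.07. The Egr1 share in blood was 67.1% of reads and 60.7% per exonic length, and in tumor 95.6% and 94.3%. The Nr4a1 share of reads was 97.8% for bone marrow, 99.8% for blood and 96.8% for tumor, and per exonic length 99.9% in blood and 97.8% in tumor.

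Same-numbered libraries did not deviate together (correlations -0.071 to 0.108), so the numbers were not treated as pairs. With a replicate block the filtered fit called 3, 3 and 3 genes, as without it. Of the list counts, 42 of 48 stayed within 1.5 times with plain totals, 32 of 48 with limma-voom and 408 of 432 without 1 library. The lists' limma-voom counts and the shares per exonic length were added after the data were seen. Read depth limited Egr3, Nr4a2 and Nr4a3 in bone marrow and blood, where 0 to 8 reads a library were found.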
